A study of Homo sapiens with 6 samples.

Results

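Axon guidance genes encode the ligands and receptors with which growing neurites and other migrating cells read their surroundings, and here they were followed as a family of 68 listed genes in a breast cancer cell line after PELP1 knockdown. Members were taken by gene symbol from the 23228 genes counted: Eph receptors (EPHA and EPHB), ephrins (EFNA and EFNB), semaphorins of classes 3 to 7, plexins, neuropilins, Robo receptors, Slits, netrins numbered 1 to 5 and UNC5 receptors. The rule itself uses symbols and no measured value, although the families were picked with earlier results of these data known. The RNA came from MDA-MB-231, a human line established from a triple negative breast cancer (TNBC), with 3 replicates of cells carrying a control non-targeted shRNA and 3 replicates of cells carrying PELP1 shRNA (PELP1-KD cells). Both groups were stable lines kept under puromycin selection after lentiviral delivery and grown in RPMI medium with 10% FBS. The PELP1-KD line rests on a single hairpin, so loss of PELP1 cannot be told apart from other effects of that hairpin or of the selection of each line. The labels do not say that the replicates are separate cultures, and p-values therefore measure the spread between these samples, which may be technical.

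These families work as pairs of a signal and a receptor. Ephrins are membrane-bound ligands of the Eph receptor tyrosine kinases, and contact between cells carries signals in both directions. Class 3 semaphorins are secreted, and most bind a neuropilin together with an A-type plexin. Most other semaphorins sit in the membrane and bind plexins directly. Slits are secreted repellents read by Robo receptors, and netrins are read by DCC, neogenin and UNC5 receptors. Outside the nervous system the same molecules are known for roles in vessel growth, epithelial boundaries and the motility of tumor cells.

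The libraries held 17304864 to 23132102 reads assigned to genes, and 3 counts, taken as the floor of detection, corresponded to between 0.127 and 0.177 CPM, the read count scaled to a common library size with TMM factors of edgeR (counts per 1e6). This floor covers counting error only, because PCR copies of a molecule were not told apart. PELP1 itself measured 57.8 CPM ± 2.14 in the control group and 29.6 CPM ± 0.876 after knockdown (SD, n = 3 each). Its log2 fold change (log2FC, PELP1-KD over control) was -0.97, with a standard error (SE) of 0.0552 and an adjusted p of 1.48e-11 in the quasi-likelihood test of edgeR. Markers of the mesenchymal line were high, with 6 of 6 above 1 RPKM (CPM per kilobase of exon) and a summed level of 1740 to 1810 RPKM in control cells and 1480 to 1510 RPKM in PELP1-KD cells. They did not move as one: FN1 was higher (log2FC 0.39, adjusted p 1.08e-08). VIM, CD44, CAV1, AXL and LGALS1 were lower, with log2FC values from -0.13 in AXL to -0.55 in CD44. The endothelial list of 4 genes had no gene above 1 RPKM, with a sum of 0.0362 to 0.0991 RPKM in control cells and 0.103 to 0.125 RPKM in PELP1-KD cells. Of these genes TEK had no read, and VWF, at 0 to 20 reads, was higher (adjusted p 6.99e-04). Of 8 luminal epithelial markers 3 were above 1 RPKM, with ESR1 and CDH1 at or near 0 counts, and their sum was 43.5 to 51.4 RPKM in control cells against 26.7 to 30.0 RPKM in PELP1-KD cells, with KRT19 at a log2FC of -0.95 (adjusted p 1.53e-10). FOXA1, at 0 to 26 reads, was also lower (log2FC -2.37, adjusted p 5.1e-04), whereas GATA3 (0.21), EPCAM (0.03) and ERBB3 (0.09) did not pass the test. VWF and FOXA1 each had a replicate with 0 reads. They may have had enough reads to be tested only through the group with more, so neither call is used as support. Among 5 neuronal markers TUBB3 alone was above 1 RPKM, and the summed level was 22.8 to 24.5 RPKM in control cells and 12.4 to 13.5 RPKM in PELP1-KD cells. The part of these shifts in the results below was not tested. In bulk RNA, fewer cells expressing a gene and less RNA per cell cannot be told apart.

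Of the 68 guidance genes, 46 had enough reads to be tested. In PELP1-KD cells 16 of them (34.8%) were lower and 8 (17.4%) were higher at an adjusted p below 0.05, where 24.2% and 22.7% of all 12796 tested genes were lower and higher. Among these, a log2FC of -0.5 or below was measured in 8 members (17.4%), against 4.81% of all tested genes. One of 0.5 or above was measured in 4 members (8.70%), against 6.42%. The CPM of the groups did not overlap in 29 members (63.0%), against 55.0% of all tested genes. The median log2FC of the tested members was -0.11, and over all tested genes it was 0.0014. The split depended on library scaling: with library totals alone in place of TMM, 10 members were lower and 13 higher, while 3817 of all genes were higher and 2418 lower.

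**Figure D1:**
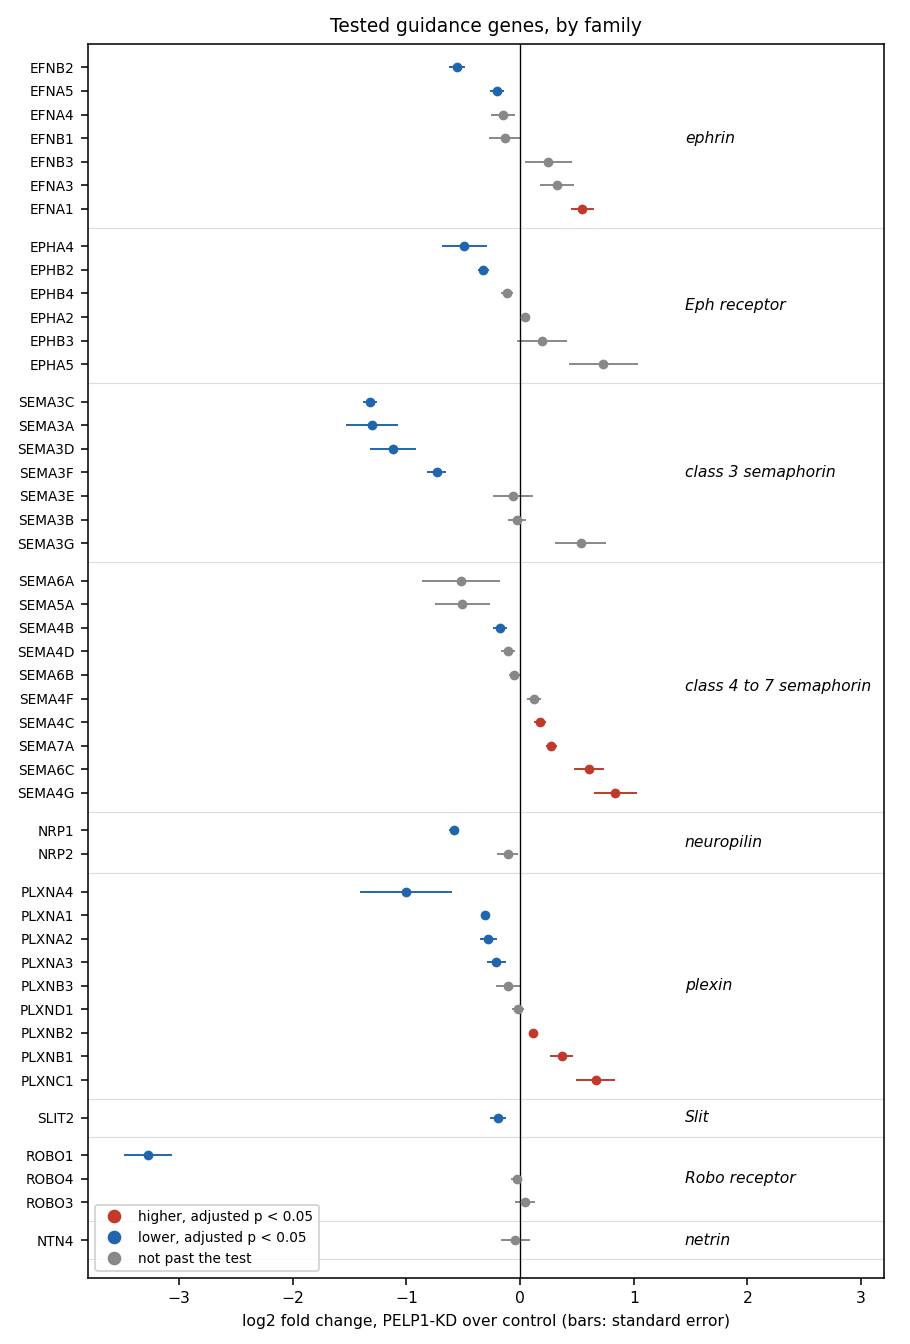
Log2 fold change (PELP1-KD over control, x axis) of the 46 tested guidance genes, listed by family; points are edgeR estimates, bars standard errors, blue lower and red higher at an adjusted p below 0.05, grey not past the test. ROBO1 lies farthest to the left at -3.28, 4 of the 7 class 3 semaphorins are blue, and the red points reach 0.84 in SEMA4G. Of the 10 tested class 4 to 7 semaphorins 4 are red and 1 is blue. Of all tested genes 24.2% were lower and 22.7% higher.

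Promoter sequences of the gene with the deepest fall, ROBO1, of class 3 semaphorins that fell (SEMA3C and SEMA3D) or did not pass the test (SEMA3E), and of PLXNC1, the receptor with the largest rise past the test, are shown because the comparisons turn on these genes. Each run is the 250 bases before an annotated start in the RefSeq table on GRCh38.p14, written 5′ to 3′ on the strand of the gene. The counts were made on another build (hg19) and per gene, so they do not tell which start was used; ROBO1 has 2 listed starts and both are shown. SEMA3C, SEMA3E and PLXNC1 also have 2, and the window with more of the words below is shown. Capitals mark matches, on either strand, to any of 4 words of factors that the study or earlier work links to PELP1: the GC box GGGCGG of SP1, the E-box CACGTG of MYC, TTTNGCGC of E2F and TTCNNNGAA of STAT factors.
ROBO1, chr3:79019460-79019709, minus strand: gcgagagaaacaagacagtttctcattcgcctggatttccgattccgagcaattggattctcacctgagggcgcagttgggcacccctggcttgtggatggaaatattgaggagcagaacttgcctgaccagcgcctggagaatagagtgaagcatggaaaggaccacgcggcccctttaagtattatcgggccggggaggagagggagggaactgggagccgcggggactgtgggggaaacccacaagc
ROBO1, chr3:79767999-79768248, minus strand: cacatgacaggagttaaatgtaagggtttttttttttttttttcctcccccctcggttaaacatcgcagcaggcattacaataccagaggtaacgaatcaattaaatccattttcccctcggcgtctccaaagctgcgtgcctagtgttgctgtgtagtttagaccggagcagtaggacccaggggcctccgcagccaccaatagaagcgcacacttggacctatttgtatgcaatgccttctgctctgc
SEMA3C, chr7:80919052-80919301, minus strand: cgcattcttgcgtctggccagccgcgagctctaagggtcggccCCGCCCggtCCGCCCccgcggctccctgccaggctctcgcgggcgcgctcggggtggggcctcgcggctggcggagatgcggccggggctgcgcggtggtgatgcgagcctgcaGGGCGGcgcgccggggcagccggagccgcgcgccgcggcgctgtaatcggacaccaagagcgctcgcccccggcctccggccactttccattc
SEMA3D, chr7:85187057-85187306, minus strand: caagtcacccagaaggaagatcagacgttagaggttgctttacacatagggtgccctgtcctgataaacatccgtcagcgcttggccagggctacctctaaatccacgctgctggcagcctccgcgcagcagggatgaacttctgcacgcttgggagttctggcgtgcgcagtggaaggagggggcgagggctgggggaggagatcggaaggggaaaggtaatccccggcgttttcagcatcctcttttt
SEMA3E, chr7:83649140-83649389, minus strand: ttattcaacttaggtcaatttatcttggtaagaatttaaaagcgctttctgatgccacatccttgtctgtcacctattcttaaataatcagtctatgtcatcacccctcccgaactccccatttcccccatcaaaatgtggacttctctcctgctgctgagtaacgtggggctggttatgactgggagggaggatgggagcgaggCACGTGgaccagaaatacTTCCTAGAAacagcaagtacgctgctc
PLXNC1, chr12:94148327-94148576, plus strand: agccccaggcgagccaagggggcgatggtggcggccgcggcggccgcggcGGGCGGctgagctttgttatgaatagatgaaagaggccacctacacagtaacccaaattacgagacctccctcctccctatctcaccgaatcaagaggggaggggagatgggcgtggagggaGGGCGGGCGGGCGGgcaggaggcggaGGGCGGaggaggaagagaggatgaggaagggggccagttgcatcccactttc

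The SEMA3C window held 77.6% G+C and 3 GC boxes, and the PLXNC1 window held 65.2% G+C and 5 GC boxes, 3 of them overlapping. The windows not shown held fewer matches, at 36.4% G+C and 0 GC boxes for SEMA3C, 53.6% G+C and 1 GC box for PLXNC1, and 34.8% G+C and none of the words for SEMA3E, so the shown windows are not compared by their matches. Both ROBO1 windows, at 56.8% and 48% G+C, and the SEMA3D window held none of the 4 words. The SEMA3E window held 1 E-box and 1 STAT word. Across the 57 members matched in the table, 63 of 89 windows (70.8%) held a GC box, against 42.5% of all 34943 windows of the same length, which include noncoding genes. A GC box was in 15 of the 22 windows (68.2%) of 14 lower members and in 10 of the 12 windows (83.3%) of the 8 higher members. Windows of the same gene can overlap almost fully, as those of EPHB2 do, so windows are not independent units. The E-box was in 4.49% of member windows against 6.32% of all, the STAT word in 5.62% against 6.56%, and the E2F word in 0 of 89 against 1.49%. A match of letters is a description and not evidence of binding.

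Class 3 semaphorins, neuropilins and A-type plexins form a signaling unit, and 9 of its 13 members, all tested, were lower in PELP1-KD cells while none was higher, where 24.2% of all tested genes were lower and 22.7% higher. The 9 include PLXNA3 and PLXNA4, whose calls were lost in 8 of 13 and 10 of 12 alternatives. This grouping goes by class and type, not by the receptor of each ligand, and was drawn up with the values in view. The ligand SEMA3C, a secreted semaphorin known from heart outflow development and tumor cell invasion, had 108, 94.3 and 99.0 CPM in control replicates 1, 2 and 3 and 37.8, 38.7 and 43.8 CPM in PELP1-KD replicates 1, 2 and 3. The groups lay far apart, with every knockdown value below every control value. SEMA3C thus stood at 40.0% of its control mean (log2FC -1.32, SE 0.0598, adjusted p 3.82e-13, edgeR quasi-likelihood test). SEMA3F, a ligand that favors neuropilin-2, had 19.6, 18.1 and 19.9 CPM in control cells and 11.1, 12.5 and 11 CPM in PELP1-KD cells. It also fell without overlap, to 60.0% of control (log2FC -0.73, SE 0.083, adjusted p 3.97e-07).

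The remaining lower ligands of this class were expressed at low levels. SEMA3A, the classical growth cone collapsing factor, had 54, 53 and 36 reads in control replicates and 17, 22 and 26 in PELP1-KD replicates. Its log2FC was -1.30 (SE 0.229, adjusted p 9.39e-05), and the groups did not overlap. SEMA3D had 115, 99 and 69 reads in control replicates and 50, 38 and 59 in PELP1-KD replicates, a log2FC of -1.12 (SE 0.201, adjusted p 1.22e-04). Its control replicates were spread widely, from 3.89 to 6.80 CPM, yet all stayed above the highest knockdown value of 2.57 CPM. SEMA3B (36.5 CPM ± 4.43 against 36.0 CPM ± 3.62, SD, n = 3) and SEMA3E (3.79 CPM ± 0.709 against 3.66 CPM ± 0.738) had overlapping groups and log2FC values of -0.03 and -0.06. SEMA3G went the other way in value, from 1.19 CPM ± 0.077 to 1.76 CPM ± 0.283, without passing the test (adjusted p 0.0558). It passed with library totals, with at least 10 counts in every replicate and without PELP1-KD replicate 3. The median log2FC of its 7 genes was -0.73, with 3 genes not past the test.

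The genes of SEMA3C, SEMA3E, SEMA3A and SEMA3D lie along a stretch of chromosome 7, in the GENCODE order SEMA3C, HGF, CACNA2D1, PCLO, SEMA3E, SEMA3A and SEMA3D, all on the minus strand. Values differed along the interval, and whether the falls share a regional cause was not tested. SEMA3E, between SEMA3C and SEMA3A, had a log2FC of -0.06, and PCLO beside it had 0.35 (adjusted p 0.0749). HGF had no reads in any replicate, and CACNA2D1 was lower, with a log2FC of -0.47 (adjusted p 0.00604). SEMA3F and SEMA3B share a stretch of chromosome 3, where SEMA3F fell and SEMA3B did not pass the test.

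SEMA3C was the most abundant gene of the class in control cells. Summed over the 7 genes, class 3 semaphorin RNA was 28.6, 27.3 and 27.8 RPKM in control replicates and 15.2, 16.6 and 16.8 RPKM in PELP1-KD replicates. Knockdown cells thus held 58.1% of the control sum. SEMA3C made up 57.4% of that sum in control cells and 39.5% in PELP1-KD cells, where its level of 6.4 RPKM ± 0.524 was close to the 6.24 RPKM ± 0.628 of SEMA3B (SD, n = 3).

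Among the receptors, NRP1, the neuropilin that binds SEMA3A and also VEGF, had 128, 125 and 124 CPM in control cells and 83.7, 84.8 and 83.1 CPM in PELP1-KD cells. Replicates were tight in each group, and the fall to 66.8% of control was far larger than their spread (log2FC -0.58, SE 0.0398, adjusted p 2.38e-10). NRP2, with 12.4 CPM ± 0.867 against 11.6 CPM ± 0.854 (SD, n = 3), had overlapping groups and did not pass the test (adjusted p 0.344). NRP1 carried 92.4% of the summed neuropilin RPKM in control cells and 89.8% in PELP1-KD cells.

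The A-type plexins, which transmit the signal of the neuropilin complex into the cell, included 3 genes with enough reads in both groups, all with small falls, and the rare PLXNA4. PLXNA1 was at 160, 165 and 162 CPM in control replicates and 128, 136 and 129 CPM in PELP1-KD replicates, a log2FC of -0.31 (SE 0.0378, adjusted p 1.37e-06). PLXNA2 had a log2FC of -0.28 (adjusted p 0.00359). Both had groups without overlap. PLXNA3, at -0.21 (adjusted p 0.049), had overlapping groups. PLXNA4 had only 13, 13 and 10 reads in control replicates and 3, 8 and 9 in PELP1-KD replicates, with a log2FC of -1.0 (SE 0.402, adjusted p 0.0467). It passed the filter on low counts through its control replicates. Its call was lost with DESeq2, library totals, no filter on low counts (adjusted p 0.0675), the replicate block (adjusted p 0.0547) and without any 1 of the 6 replicates, with an adjusted p of 0.0258 to 0.193 over the alternatives. The call of PLXNA3 was lost with DESeq2, voom, RLE scaling and library totals, without control replicate 2 or 3 and without PELP1-KD replicate 1 or 3 (adjusted p up to 0.231).

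**Figure D2:**
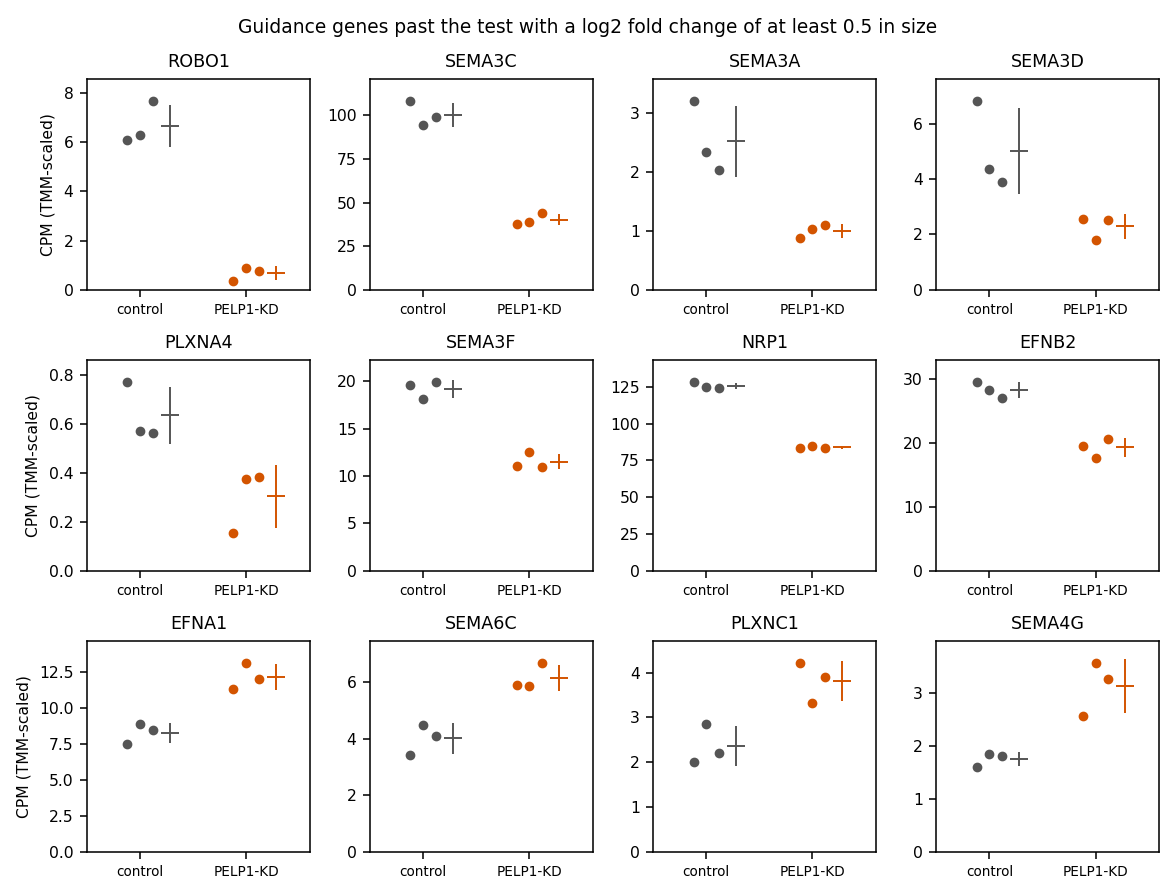
TMM-scaled CPM (y axes, each from 0) in the 3 control and 3 PELP1-KD replicates of the 12 guidance genes that passed the test with a change of at least 0.5 on the log2 scale; points are replicates, and the dash with bar beside them is the mean ± SD. In each of the 12 panels the groups do not overlap, from ROBO1 (6.68 to 0.671 CPM) to SEMA4G (1.75 to 3.13 CPM). The 12 genes were chosen by the test, and 55.0% of all tested genes have groups that do not overlap.

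Semaphorins of classes 4 to 7 and the B, C and D plexins included most of the higher calls: of 15 tested members 7 were higher and 1 was lower, against 22.7% and 24.2% of all tested genes. This grouping, by semaphorin class and plexin type, was also drawn up with the values in view. It does not pair each ligand with its own receptor, so the grouping may shape the contrast with the class 3 unit. The difference between these counts and those of the class 3 unit was not tested. SEMA7A, a membrane-anchored semaphorin, and PLXNC1, its plexin receptor, were both higher. SEMA7A had 65.0, 71.2 and 71.4 CPM in control replicates and 81.8, 83.2 and 86.6 CPM in PELP1-KD replicates (log2FC 0.28, SE 0.0484, adjusted p 8.75e-05). PLXNC1 was a rare transcript, with 34, 65 and 39 reads in control replicates and 82, 71 and 92 in PELP1-KD replicates. In CPM its groups did not overlap, and its log2FC was 0.67 (SE 0.171, adjusted p 0.00314). At 18.2 RPKM in control cells SEMA7A was the most abundant semaphorin of any class, whereas PLXNC1 was at 0.238 RPKM.

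SEMA4C, a transmembrane ligand of plexin-B2, and PLXNB2 also rose, by little. SEMA4C moved from 71.7 CPM ± 2.05 to 81.0 CPM ± 5.04 (SD, n = 3; log2FC 0.18, adjusted p 0.00694, edgeR quasi-likelihood test). PLXNB2 moved from 257 CPM ± 3.43 to 277 CPM ± 12.5 (log2FC 0.11, adjusted p 0.0136). The latter call was lost without control replicate 2 or without PELP1-KD replicate 2, with adjusted p values up to 0.0785. PLXNB1, a receptor of SEMA4D, rose with a log2FC of 0.37 (SE 0.105, adjusted p 0.00738), while SEMA4D itself had -0.11 and did not pass the test (adjusted p 0.145).

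The larger rises in this group were in genes of low level. SEMA6C, a transmembrane semaphorin, had 3.43, 4.49 and 4.11 CPM in control replicates and 5.90, 5.86 and 6.67 CPM in PELP1-KD replicates (log2FC 0.61, SE 0.133, adjusted p 8.44e-04). SEMA4G had 27, 42 and 32 reads against 50, 76 and 77, without overlap in CPM (log2FC 0.84, SE 0.186, adjusted p 9.02e-04). Its value is uncertain, since 22.3% of its exon length overlaps MRPL43 on the opposite strand and whether reads were counted by strand is not given in the sources used here. SEMA4B was the lower member, with a log2FC of -0.18 (adjusted p 0.0291), overlapping groups and no call with DESeq2 or library totals. Its call was also lost without control replicate 2 or 3 and without PELP1-KD replicate 1 or 3 (adjusted p up to 0.193). SEMA4F, SEMA5A, SEMA6A, SEMA6B, PLXNB3 and PLXND1 did not pass the test, with log2FC values between -0.52 and 0.12. The value of PLXNB3 is uncertain, since 20.4% of its exon length overlaps SRPK3 on the same strand. Summed over the classes, semaphorins of classes 4 to 7 stood at 59.9 RPKM ± 3.04 in control cells and 64.9 RPKM ± 1.84 in PELP1-KD cells (SD, n = 3).

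**Figure D3:**
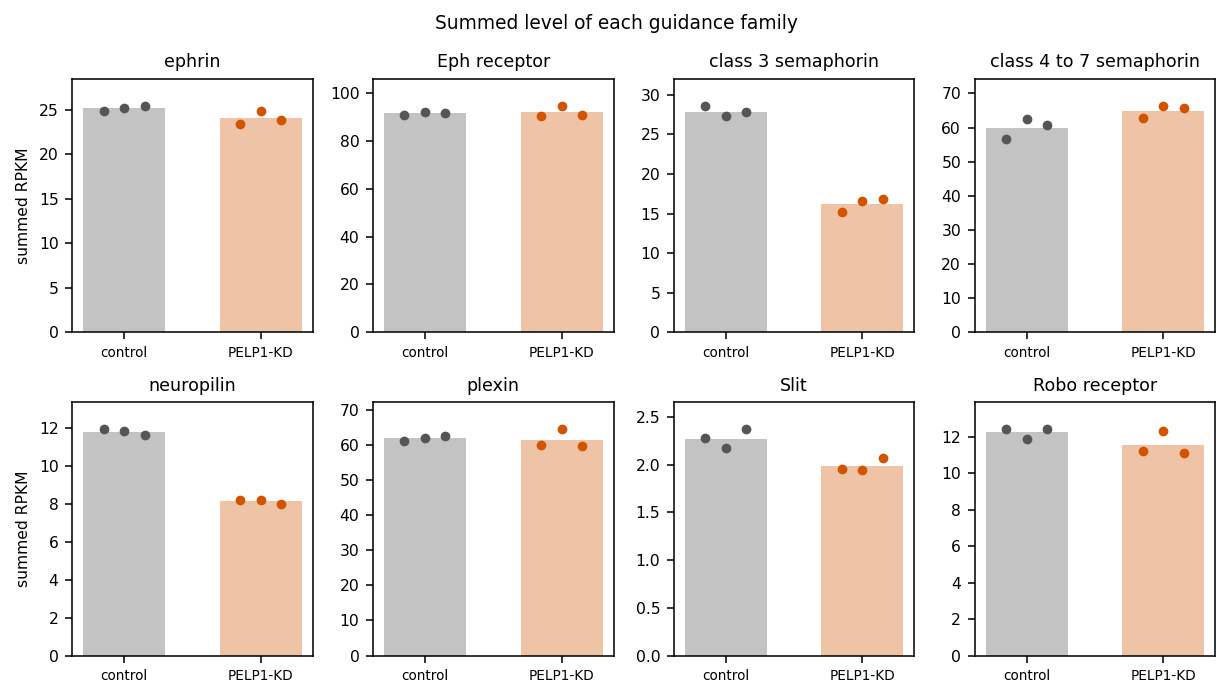
Summed RPKM of all listed members of each family except netrins and UNC5 receptors (y axes, each from 0) per replicate; bars are means of 3 replicates and points the replicates. Class 3 semaphorins (27.9 to 16.2 RPKM) and neuropilins (11.8 to 8.11 RPKM) are separated by group, whereas Eph receptors (91.7 and 92.0 RPKM) and plexins (61.8 and 61.4 RPKM) overlap. Class 4 to 7 semaphorins (59.9 to 64.9 RPKM, upward) and Slits (2.27 to 1.99 RPKM) are also separated, by smaller steps.

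In the Slit and Robo pair, ROBO1 had the deepest fall of any guidance gene tested. This receptor, which reads Slit proteins on migrating cells, had 103, 143 and 136 reads in control replicates 1, 2 and 3 and 7, 19 and 18 reads in PELP1-KD replicates 1, 2 and 3. The highest knockdown level, 0.891 CPM, was well below the lowest control level, 6.09 CPM. ROBO1 stood at 10.1% of its control mean after knockdown, a log2FC of -3.28 (SE 0.212, adjusted p 1.14e-10, edgeR quasi-likelihood test). Across the alternatives in which it could be tested the log2FC stayed between -3.51 and -3.0. Under a demand for 10 counts in every replicate it was left out, because of the 7 reads in 1 knockdown replicate. Like PLXNA4, ROBO1 passed the filter on low counts through its control replicates, so its adjusted p is not used as support.

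SLIT2, a ligand of ROBO1, was slightly lower, at 22.0, 20.9 and 22.9 CPM in control replicates and 18.9, 18.5 and 19.8 CPM in PELP1-KD replicates (log2FC -0.20, adjusted p 0.0271). That call was lost with DESeq2, with library totals, without control replicate 3 and without PELP1-KD replicate 1 or 2 (adjusted p up to 0.101). ROBO2, which lies next to ROBO1 on chromosome 3, had at most 3 reads in any replicate. ROBO3 and ROBO4, neighbors on chromosome 11, did not pass the test, with log2FC values of 0.05 (SE 0.0858) and -0.03 (SE 0.0506).

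Per length, ROBO4 was the main Robo transcript of these cells. Known as the Robo of endothelium, it was at 9.75 RPKM ± 0.285 in control cells and 9.54 RPKM ± 0.549 in PELP1-KD cells (SD, n = 3). The endothelial markers PECAM1, CDH5, VWF and TEK together summed to no more than 0.125 RPKM in any replicate. ROBO1, in contrast, was at 0.614 RPKM ± 0.0785 in control cells, so its fall left the summed Robo level at 94.2% of control. Of the exon length of ROBO4, 10.6% and 6.37% overlap 2 opposite-strand genes that are not in the count tables. The remaining Slits, SLIT1 and SLIT3, had at most 7 and 3 reads.

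Of the 13 tested ephrins and Eph receptors, 4 were lower and 1 was higher in PELP1-KD cells, and 8 did not pass the test. Over all tested genes 24.2% were lower and 22.7% higher, and the lower calls of EPHA4 and EFNA5 were lost in some alternatives. Eph receptors had the highest summed level of the families, at 91.7 RPKM ± 0.678 in control cells and 92.0 RPKM ± 2.29 in PELP1-KD cells (SD, n = 3). EPHA2, an Eph receptor known for high expression in basal-like breast cancer cells, had the highest level of all guidance genes, at 73.3 RPKM ± 0.416 in control cells and 75.7 RPKM ± 1.84 in PELP1-KD cells (SD, n = 3). Its log2FC of 0.05 (SE 0.0309) did not pass the test (adjusted p 0.228), although its groups did not overlap. It supplied 80.0% of the summed Eph receptor RPKM in control cells and 82.2% in PELP1-KD cells.

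EFNA1, the main ligand of EPHA2, was higher in knockdown cells. It had 7.51, 8.85 and 8.45 CPM in control replicates and 11.3, 13.1 and 12 CPM in PELP1-KD replicates. The lowest knockdown value lay above the highest control value, and the log2FC was 0.55 (SE 0.099, adjusted p 1.22e-04). EFNA4 and EFNA3, which precede EFNA1 in a row on chromosome 1, had -0.15 and 0.33 and did not pass the test. EFNA3 and EFNA4 share exons with a read-through gene, over 44.7% and 15% of their lengths, so that their values are uncertain.

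EFNB2, a B-type ephrin known from arterial and lymphatic vessels, fell from 29.5, 28.3 and 27.1 CPM to 19.6, 17.7 and 20.6 CPM. This is 68.1% of control (log2FC -0.55, SE 0.0715, adjusted p 2.42e-06), without overlap. Of its exon length, 26.2% overlaps an opposite-strand gene not listed in the count tables. EPHB2, one of its receptors, was lower by less, at 73.1 CPM ± 0.685 against 58.5 CPM ± 1.16 (SD, n = 3; log2FC -0.32, adjusted p 7.62e-06). EPHB4, the receptor best known as its partner in vessels, had a log2FC of -0.12 and did not pass the test (adjusted p 0.0608). It passed with the replicate block and without control replicate 1 or 3.

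The other calls among Ephs and ephrins were near the threshold or small. EFNA5 had a log2FC of -0.20 (adjusted p 0.0131), and EPHA4 had -0.49 (adjusted p 0.0498) from 31 to 54 reads per replicate. The call of EPHA4 was lost with DESeq2, RLE scaling and library totals and without any 1 replicate except PELP1-KD replicate 2 (adjusted p up to 0.206). That of EFNA5 was lost with library totals (adjusted p 0.0526) and without PELP1-KD replicate 3 (adjusted p 0.0795). EPHA5 was higher in value, with 16, 13 and 10 reads against 29, 21 and 23 and no overlap in CPM, but did not pass the test (adjusted p 0.0533). It passed with library totals, with at least 10 counts in every replicate, with the replicate block and without control replicate 1. EPHB3, EFNB1 and EFNB3 did not pass it either, with overlapping groups.

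**Figure D4:**
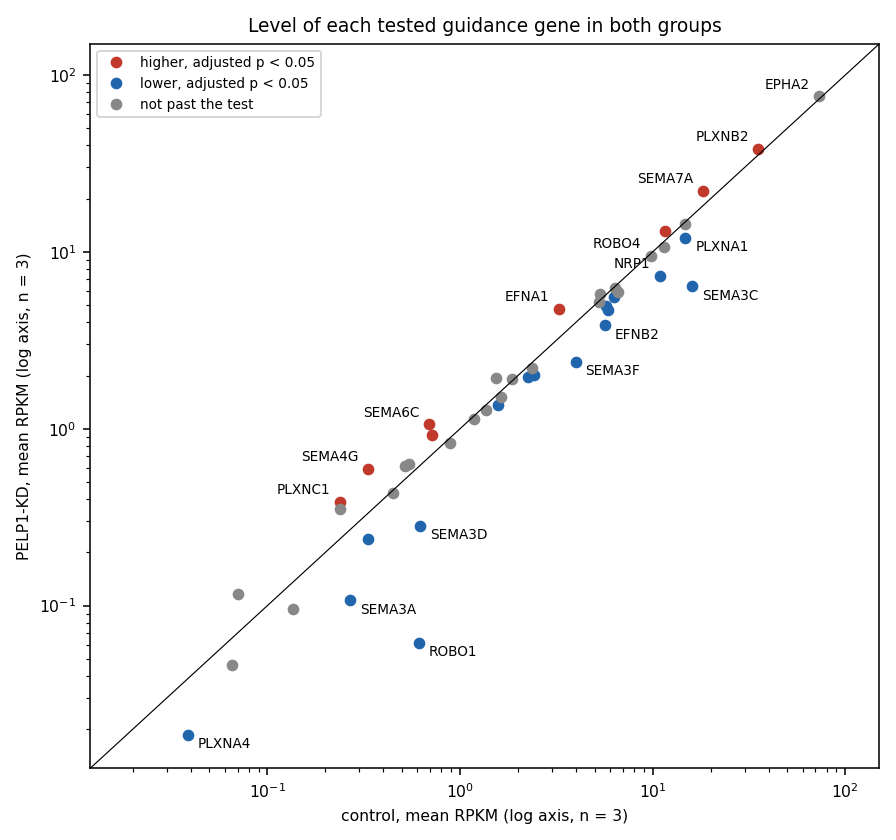
Mean RPKM of each of the 46 tested guidance genes in control (x) and PELP1-KD (y) cells on log axes, n = 3 each; the line marks equal levels and colors mark calls at an adjusted p below 0.05. EPHA2, at 73.3 and 75.7 RPKM, sits at the top of the line, and ROBO1, at 0.614 and 0.0617 RPKM, lies farthest below it.

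Netrins and UNC5 receptors were mostly at or near the floor of detection. NTN4, a laminin-related netrin, was the sole tested member of its 8 netrin and UNC5 genes, with 4.90 CPM ± 0.18 against 4.76 CPM ± 0.407 (SD, n = 3; log2FC -0.04, adjusted p 0.813). NTN1 had at most 10 reads in any replicate and UNC5B likewise at most 10, and UNC5A, UNC5C, NTN3 and NTN5 had at most 4. In all, 22 members had too few counts to be tested, with 0 to 11 reads per replicate. EPHA8, EPHB1, SEMA5B and UNC5D had no read in any replicate. The other 18 were EFNA2, EPHA1, EPHA3, EPHA6, EPHA7, EPHA10, EPHB6, NTN1, NTN3, NTN5, ROBO2, SEMA4A, SEMA6D, SLIT1, SLIT3, UNC5A, UNC5B and UNC5C. With no filter on low counts SEMA6D passed the test, lower in PELP1-KD cells, and for the other members with so few reads the depth limits what could be detected.

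Genes that act beside or below these receptors were taken from a list of 67, of which 66 were in the count tables and 51 were tested. In PELP1-KD cells 21 were lower and 8 higher, with a median log2FC of -0.07, where 24.2% of all tested genes were lower and 22.7% higher. The largest falls were those of FLRT2, a ligand of UNC5 receptors (16.5 CPM ± 1.14 to 6.16 CPM ± 0.455, log2FC -1.42, adjusted p 2.43e-10), DPYSL2, the collapsin response mediator that relays SEMA3A signals to microtubules (log2FC -1.06, adjusted p 2.22e-10), and GRIP1, a scaffold that binds B-type ephrins (log2FC -1.03, adjusted p 5.52e-04). In all 3 the groups did not overlap, as in 55.0% of all tested genes. The largest rises were those of ARHGEF5 (log2FC 0.81, adjusted p 0.00105), TIAM1 (log2FC 0.63, adjusted p 7.54e-08) and LIMK1 (log2FC 0.58, adjusted p 8.33e-11), the kinase that inactivates cofilin. NEO1, the netrin and RGM receptor neogenin, and the GTPase RAC1 were picked out after their values were seen. NEO1 went from 12.8 CPM ± 0.942 to 7.0 CPM ± 0.395 and RAC1 from 440 CPM ± 11.8 to 289 CPM ± 0.852 (SD, n = 3), with log2FC values of -0.87 and -0.61. The netrin receptor DCC had no read in any replicate.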

How the data were processed

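The authors prepared stranded mRNA libraries, sequenced them as 50-base single reads (Illumina HiSeq) and deposited unnormalized read counts per gene symbol for each replicate. Per the labels, the processing notes name bcl2fastq, TopHat2, SAMtools, HTSeq and build hg19; versions, annotation and the use of strand are not given in the sources used here. Rows that name no gene, most of them reads not uniquely aligned, held 41.0% to 41.4% of the total and were left out. Groups and replicate numbers came from the sample titles.

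From the counts, genes passing edgeR's filterByExpr (minimum count 10) were scaled by TMM and tested with the quasi-likelihood test of edgeR 4.0.16 in R 4.3.3, with Benjamini-Hochberg adjustment over all 12796 tested genes. The study itself used DESeq2. Every adjusted p-value given comes from that edgeR fit unless another tool is named. Standard errors were derived from each log2FC and its F statistic. CPM and RPKM use TMM-scaled library sizes, and RPKM the merged exon length of each gene in GENCODE release 29 (GRCh38), so levels between genes are approximate. Replicates differed by more than counting noise (chi-square per degree of freedom 1.46 to 3.99). The code was tested on simulated counts.

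Members past the test with a log2FC of at least 0.5 in size are described in full and other called members by log2FC; the highest member of each family and the 3 largest changes in each direction of the pathway list are named. Members, lists and tests were chosen with earlier results of these data known. An exact permutation test of 3 against 3 cannot go below 0.1, so none is given for single members. Alternatives were RLE scaling, library totals, DESeq2 1.42.0, voom in limma 3.58.1, other filters, a replicate block, leaving out each replicate and a log2FC threshold of 1. The result for 1 marker list is not reported here.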

Additional observations from a re-analysis of the deposited data

How the results depend on the processing

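Of the 24 guidance genes past the test, 17 stayed past it in every refit of 13 in which they were tested, leaving aside the log2FC threshold of 1, and none changed direction. Of the 12 described in full, 11 did so under these refits, PLXNA4 being the exception. The calls lost in at least 1 refit were those of PLXNA4, PLXNA3, EPHA4, SEMA4B, SLIT2, EFNA5 and PLXNB2. With library totals alone, 13 members were higher and 10 lower, where TMM gave 8 and 16, and the median log2FC of all genes was 0.051. A required log2FC of at least 1 left 0 higher and 5 lower members, so 7 of those 12 also failed it. The count over all genes at that threshold is not given. Calls were gained in some refits for EPHA5, SEMA3G, EPHB4, EFNA3, EPHA2, SEMA4F and SEMA6D. DESeq2 gave 8 higher and 11 lower, where 2290 of all genes were higher and 2670 lower. With each replicate left out in turn, 7 to 9 members were higher and 11 to 15 lower. Of all genes, 2459 to 2837 were then higher and 2723 to 3066 lower, and the log2FC of PELP1 stayed between -0.99 and -0.94. With 2 replicates in an arm, SEMA4B was no longer past the test without control replicate 2 or 3 or PELP1-KD replicate 1 or 3. Replicate numbers did not pair the samples: deviations of same-numbered replicates correlated at 0.0388, 0.0653 and -0.0784, and 2 of 6 samples correlated best with their own number. With the replicate block, 9 members were higher and 16 lower, where 3140 of all genes were higher and 3335 lower, and the log2FC of PELP1 was -0.97. Depth limits what can be said of the 22 untested members and of PLXNA4, ROBO1 and SEMA6A, which had a replicate under 10 reads.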

Other observations

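Among the members with too few counts to be tested, SEMA6D, a transmembrane semaphorin, had 5, 2 and 1 reads in control replicates 1, 2 and 3 and 0 in each PELP1-KD replicate. Both groups were near the floor of 3 counts, so no fold is given. It was the sole member gained as a call when no filter on low counts was applied. EFNA2, a GPI-anchored ephrin, had 2, 5 and 7 reads in control replicates and 10, 7 and 11 in PELP1-KD replicates. NTN1, the founding netrin, had 2, 8 and 0 reads in control replicates and 6, 9 and 10 in PELP1-KD replicates, with overlapping values.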
